A study of Schmidtea mediterranea with 40 samples.

Results

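The transcripts described here are 56 of the 35262 in an expression table of the freshwater planarian flatworm Schmidtea mediterranea (Smed). They were low before stage 5 (S5) of embryogenesis, were present in S5 embryos, and were still present in S8 hatchlings. Expression was given in RPKM, mapped reads scaled by transcript length in kilobases and by library size. The members were chosen from mean RPKM over the 4 samples of each group: the S5 mean was at least 5 RPKM, the yolk (Y), S2, S3 and S4 means were each at most 0.1 of the S5 mean, and the S8 mean was above 0.2 of it. Because those values chose the members, levels in Y, S2 to S5 and S8 are given as a description, without a test. S6 and S7 embryos and both kinds of adult took no part in the choice, and tests were run among these groups.

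The 40 polyA-selected RNA-Seq libraries, 4 per group, were each made from 1 yolk preparation, 1 embryo or 1 adult, so replicates were separate individuals. By the day labels, embryos were collected on day 2 (S2), 3 (S3), 4 (S4), 6 (S5), 9 (S6), 10 (S7) and 14 (S8), from capsules laid by outbred sexual stock. Yolk was taken from capsules with no embryo in sight at 8 days, although its day label reads 0. Adults were intact, virgin and sexually mature (SX), or intact asexual animals (C4) of the clonal line CIW-4, a single clone kept by repeated cutting and regrowth. No treatment or genetic change was given for any group, stocks were fed beef liver, and S2 and S3 libraries started from 100 ng of RNA against 500 ng for the others. SX libraries were run on another sequencer than the C4 and embryo libraries, and adults were homogenized with a tissue disruptor whereas embryos were pipetted.

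Planarian embryos develop among yolk cells that the parent packs into the capsule. Early embryos take up this yolk with a temporary pharynx, which is later replaced, and hold it in an embryonic gut. The dividing blastomeres express piwi-1, as adult stem cells (neoblasts) do, and from S5 onwards the definitive epidermis, gut, nervous system, eyes and excretory tubules begin to be built from them. Adults of both biotypes renew the same organs from neoblasts throughout life.

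Reads assigned to transcripts in the table, rebuilt from the RPKM steps, summed to 5.73 to 17.5 M per library (median 11.5 M). These sums leave out unmapped reads and a ribosomal RNA transcript that the authors removed, so they lie below the sequenced depth. S2 replicate 2 and S5 replicate 1 stood apart from their groups for the members. The median member was at 1.62 RPKM in S2 replicate 2 and 0.138 to 0.536 RPKM in the other S2 embryos, and 39 of the 56 members reached 1 RPKM there, against 5 to 16 in the others. The summed RPKM of 11 epidermal lineage markers (2 of them members) was also 324 in S2 replicate 2, against 18.8 to 42.1 in the other S2 embryos. In S5 replicate 1 the median member stood at 0.50 of its S5 mean and 50 of the 56 members were at their lowest S5 value, while 29.5% of all 7748 transcripts with an S5 mean of at least 5 RPKM were lowest in that embryo. The same embryo had the lowest epidermal marker sum of the S5 embryos (176, against 669 to 683 in the others), the lowest sum of 7 neural markers (13.8, against 19.1 to 32.4), and the highest sums of 4 temporary pharynx markers (242, against 52.7 to 135) and of 20 yolk transcripts (1135270, against 401229 to 616488). The part of these values in the members' levels was not tested.

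**Figure D1:**
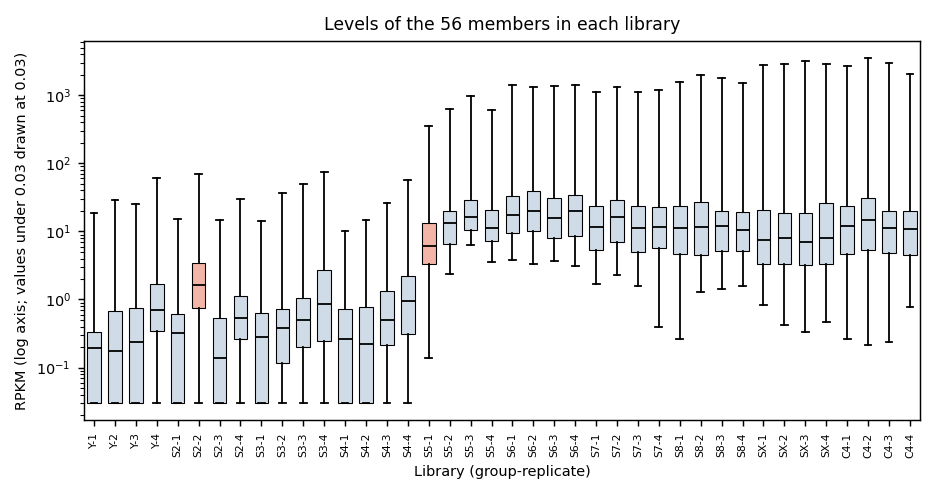
RPKM of the 56 transcripts in each of the 40 libraries, on a log axis, in stage order with both adult groups at the right. Boxes span the middle quartiles with a line at the median, whiskers reach the lowest and highest member, values under 0.03 are drawn at 0.03, and the boxes of S2 replicate 2 and S5 replicate 1 are pink. The first of these stands above the other S2 embryos and the second below the other S5 embryos.

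The label given to these transcripts, switched on at S5 and kept, held as far as the rule fixes it, with 2 qualifications. Low-level reads were present before S5: none of the 56 members was at 0 in all 16 Y to S4 libraries, and 3 were at 0 in all 4 S4 embryos. The highest early mean lay in S2 for 22 members, S3 for 19, S4 for 11 and Y for 4. Without S2 replicate 2 these counts were 7, 21, 16 and 12, and the rule was met by 117 transcripts, among them all 56. In the other direction, kept describes S8, and 2 members in SX and 2 in C4 had adult means under 0.1 of the S5 mean.

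Across members the S5 mean ran between 5.39 and 645 RPKM (median 11.5): 3 members were at 100 RPKM or more, 33 between 10 and 100, and 20 below 10. The S5 mean was 10.1 to 43.6 times the highest early mean (median 13.7), or 10.1 to 53.5 times (median 15.5) without S2 replicate 2. For the 53 members with any S4 reads, S5 was 10.2 to 98.6 times S4 (median 23.6). The S4 side of these ratios was shallow, with a median of 17 reads per member summed over 4 embryos and fewer than 10 reads for 21 members, so the larger ratios are imprecise. In 47 members the lowest S5 embryo was above all 16 earlier libraries, and in all 56 this held for S5 replicates 2 to 4. The rule used these same values, so such separation was largely fixed by the choice of members. The share over all transcripts was not computed, and S5 replicate 1 was set aside here after its values were seen. In whole-embryo RNA, fewer cells of a type and less RNA per cell cannot be told apart, so these levels do not say whether more cells carried a transcript or each cell carried more.

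The thresholds of the rule fell between close neighbours at 2 of its 3 limits. SMED30011091, a Ski-like transcript, was the lowest member at S5 (5.39 RPKM), and SMED30030809 lay just outside at 4.97 RPKM. SMED30013455, which has no described relative, had the highest early ratio of the members (0.0991 of S5), and SMED30017940 lay just outside at 0.101 of its S5 mean. The lowest ratio of S8 to S5 was 0.217 in SMED30012783, also undescribed, and the nearest excluded transcript, SMED30032076, was at 0.107.

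After S5 the members did not follow a single course. S6 was the highest of the S5 to S8 means for 32 members, S5 for 16, S8 for 6 and S7 for 2. Among all transcripts with an S5 mean of at least 5 RPKM, 10.6% peaked at S6 and 67.8% at S5. These counts depended on scaling: without the authors' TMM factors, which correct for library composition, S6 was the highest for 42 members, S8 for 12, S5 for 1 and S7 for 1, and of all those transcripts 29.5% peaked at S6 and 19.5% at S5. The median ratio to the S5 mean was 1.27 at S6, 0.966 at S7, 0.815 at S8, 0.575 in SX and 0.787 in C4, against 0.771, 0.710, 0.671, 0.704 and 0.756 over all those transcripts. Leaving out S5 replicate 1 lowered the member medians to 1.07 at S6, 0.664 at S8, 0.483 in SX and 0.723 in C4. The ratios moved with scaling too: without the TMM factors the member medians were 2.04, 1.57, 1.52, 0.942 and 1.28 and those of all the transcripts 1.31, 1.23, 1.35, 1.25 and 1.26, in the same order. The member median stood above that of all the transcripts at S6, S7 and S8, slightly above it in C4, and below it in SX under both scalings. The rule used S5 and S8, so the S8 difference is partly fixed by the choice of members, and all are given as a description. Without S5 replicate 1 the S8 member median (0.664) was not above the 0.671 of all the transcripts. In C4 the member median (0.723) was likewise below the 0.756 of all the transcripts. Those medians of all the transcripts were taken with every S5 embryo. Levels at different stages are set side by side below on the TMM-scaled RPKM.

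**Figure D2:**
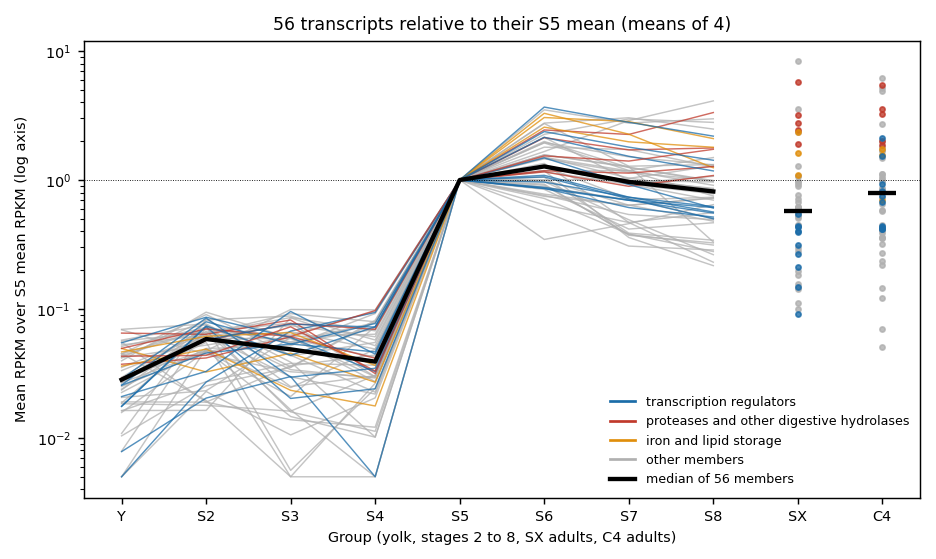
Mean RPKM of each of the 56 transcripts relative to its own S5 mean, on a log axis, in Y, S2 to S8 and both adult groups, with ratios under 0.005 drawn at 0.005. All lines lie at or under 0.1 before S5, as the rule requires, and spread on both sides of 1 after it.

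The 2 highest S5 means belonged to SMED30035609 and SMED30018252, which both had Digestive cysteine proteinase 2 as best BLASTx match; enzymes of this kind cut proteins in the gut lumen or in lysosomes. SMED30035609 was at 8.78, 14.7, 25.8 and 57.8 RPKM in the S4 embryos, 353, 627, 987 and 615 in S5 and 1398, 1336, 1358 and 1409.8 in S6. SMED30018252 was at 10.3, 14.3, 17.0 and 23.4 RPKM in S4, 257, 417, 866 and 518 in S5, 1297, 1186, 1308 and 1239.7 in S6 and 1592, 1992, 1774 and 1509 in S8. Both transcripts were higher in every S5 embryo than in any S4 embryo and higher again in every S6 embryo, and both were lowest among S5 embryos in replicate 1. Adult means were above the S5 means for both: SMED30018252 averaged 2968 ± 169 RPKM in SX and 2827 ± 615 RPKM in C4 (SD, n = 4 each), and SMED30035609 averaged 2059 ± 240.2 in SX and 1215 ± 277 in C4. These related transcripts can share reads, because the mapping kept reads with up to 5 matches, so the split between them is uncertain.

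The other hydrolases were less abundant and also high in adults. SMED30016801, related to the lysosomal Group XV phospholipase A2, averaged 20.6 ± 6.77 RPKM in S5, 22.3 ± 5.58 in S8, 50.6 ± 8.41 in SX and 73.0 ± 7.36 in C4. SMED30015831, similar to a purple acid phosphatase and called gut-enriched in the annotation of adult tissues, averaged 19.0 ± 5.93 RPKM in S5, 24.2 ± 1.97 in S8, 53.1 ± 1.76 in SX and 38.4 ± 3.43 in C4. SMED30023427, cholinesterase-like and also called gut-enriched, averaged 5.48 ± 3.07 RPKM in S5, 9.49 ± 1.29 in S8, 10.5 ± 0.524 in SX and 17.7 ± 3.15 in C4. All 5 hydrolases therefore had adult means above their S5 means in both biotypes. Of all transcripts with an S5 mean of at least 5 RPKM, 25.0% did so, and 55.0% without the TMM factors. The S5 mean was a value of the rule, so this is given as a description.

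Iron and lipid storage members peaked at S6. SMED30003809 matched vitellogenin, a large lipoprotein that carries lipid into yolk in egg-laying animals, and is annotated as gut-enriched in adults. Its levels were 1.01, 1.11, 2.14 and 1.55 RPKM in S4, 35.7, 97.2, 140.1 and 55.4 in S5, 263, 258, 271 and 289.6 in S6, 193, 266, 150.1 and 136 in S7 and 152, 86.8, 81.9 and 88.0 in S8. The rebuilt length of 11527 bases made it the longest member, and its Y mean was 2.96 RPKM, a low value that the rule required. SMED30017554, a ferritin (ferritins store iron inside cells), was at 28.0, 95.8, 101 and 32.7 RPKM in S5, 171, 158, 156 and 176 in S6 and 122, 145, 122 and 121 in S7. The other ferritin, SMED30027587, averaged 11.4 ± 4.68 RPKM in S5 and 34.7 ± 2.83 in S6. In each of the 3 storage transcripts every S6 embryo was above every S5 embryo, as in both cysteine proteinases and several members below. Separations of S5 from later embryos are given throughout as a description. S5 values chose the members, and the share of such separations over all transcripts was not computed.

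**Figure D3:**
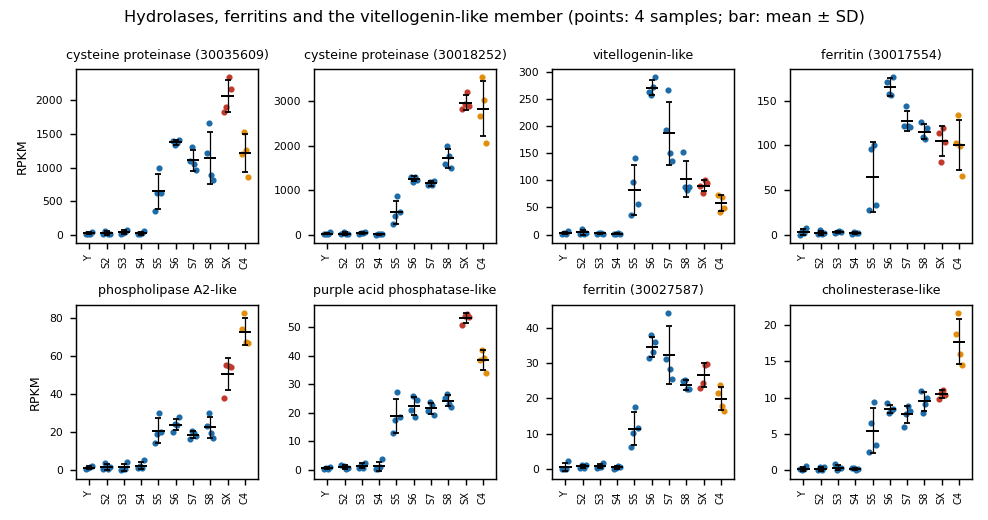
RPKM per library of digestive hydrolase and storage transcripts, with blue points for yolk and embryos, red for SX and orange for C4; bars give the mean ± SD of 4 samples. Hydrolases stay high or stand higher in adults than in S5 embryos, while the vitellogenin-like transcript is highest at S6.

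Transcription regulators were the largest described group, with 10 members, and were mostly of modest level (S5 means 5.39 to 26.4 RPKM). tcf15 (SMED30006464), a bHLH factor, was at 2.53, 0.735, 3.19 and 3.47 RPKM in S4 embryos, 28.1, 35.4, 23.8 and 18.3 in S5 and 21.2, 26.9, 21.7 and 21.0 in S6. EGR-1 (SMED30012332), a zinc finger factor, was at 0.339, 0.863, 0.599 and 0.389 in S4, 15.9, 27.9, 20.1 and 27.1 in S5 and 20.7, 20.1, 18.1 and 20.9 in S6. Both are annotated to adult epidermis and to the zeta neoblasts, the epidermal precursors. Both were higher in every S5 embryo than in any S4 embryo and had their highest group mean at S5 on this scale. S5 replicate 1, the lowest S5 embryo for most members, was the lowest for EGR-1 but not for tcf15. The soxB-1 transcript (SMED30025778), a Sox factor annotated to the eye and to sigma neoblasts, was at 0 in all 4 S4 embryos and at 4.77, 8.20, 7.70 and 6.88 RPKM in S5. A floor of 3 reads over the 4 S4 embryos together is 0.0807 RPKM, so its S5 mean was at least 85.4-fold higher in S5 than in S4 embryos. The other members at 0 in all S4 embryos, both without a known role, were at least 71.6-fold higher (SMED30006466) and at least 14.8-fold higher (SMED30000607) in S5. These floors cover counting error only.

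A pair of Ski-like transcripts had their highest group mean at S6. Ski proteins repress transcription and hold back TGF-beta signalling in vertebrates, and both transcripts are annotated as pan-neural in adults. SMED30003733 was at 0.620, 5.58, 16.7 and 6.37 RPKM in S5 and 23.8, 25.6, 29.8 and 28.5 in S6, and SMED30011091 was at 2.30, 6.48, 8.80 and 3.99 in S5 and 14.1, 11.6, 12.3 and 13.4 in S6. Every S6 embryo was above every S5 embryo for both. Reads may be shared between them as for the proteinases. Znf91 (SMED30010458), a zinc finger transcript, was at 10.5, 15.7, 23.3 and 11.1 RPKM in S5 and 32.1, 33.5, 30.2 and 34.2 in S6, with S5 replicate 1 the lowest of those 8 embryos.

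For 3 of the remaining regulators the S6 mean was close to the S5 mean. SMED30018309, related to the Iroquois homeobox proteins (patterning factors in many animals), averaged 8.11 ± 2.14 RPKM in S5 and 8.83 ± 0.919 in S6. SD1 (SMED30026965), a TEF-1/scalloped relative of the kind that binds DNA for Hippo pathway co-activators, averaged 9.43 ± 0.676 in S5 and 8.12 ± 1.13 in S6. SMED30034275, a MIZ-type zinc finger protein, averaged 11.6 ± 1.72 in S5 and 11.2 ± 1.01 in S6. The zinc finger transcript SMED30021702 was at 5.23, 5.09, 7.89 and 5.53 RPKM in S5 and 8.05, 10.3, 8.29 and 8.62 in S6, with every S6 embryo above every S5 embryo. The spread among S5 embryos differed from member to member: the S5 coefficient of variation was 6.30 to 107% over the 56 (median 43.2%), against a median of 17.7% over all transcripts with an S5 mean of at least 5 RPKM.

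**Figure D4:**
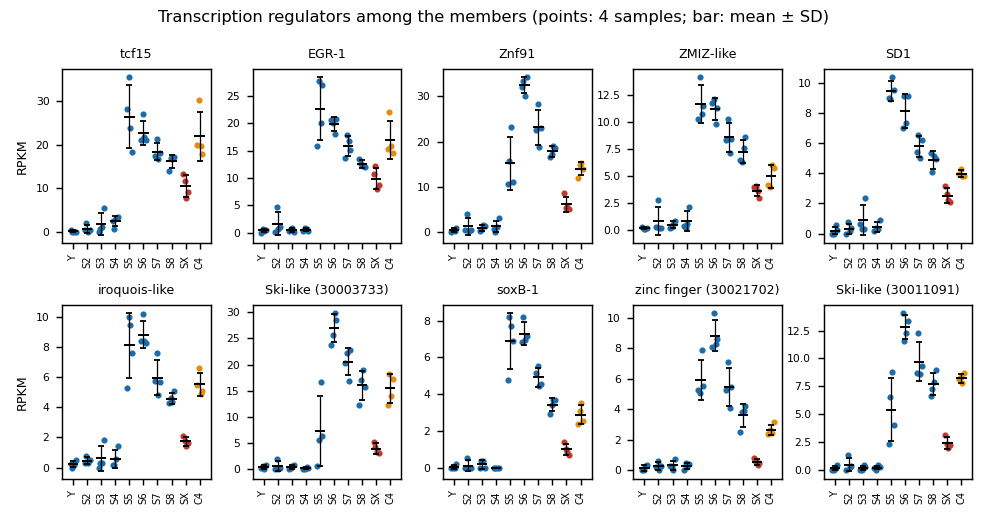
RPKM per library of transcription regulators among the members, with blue points for yolk and embryos, red for SX and orange for C4; bars give the mean ± SD of 4 samples. Levels are near 0 before S5, highest by mean at S5 or S6, and lower by mean in SX than in C4.

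The 2 cell cycle members and the 2 cytoskeletal members did not all share a course after S5. SMED30006416, a cdc25 phosphatase (an activator of the kinases that drive mitosis), was at 1.90, 1.94, 4.43 and 7.53 RPKM in S4, 44.1, 91.9, 61.8 and 50.1 in S5, 37.0, 56, 37.6 and 47.7 in S6 and 19.0, 19.1, 16.1 and 15 in S8. Its group mean was lower at each step after S5, a course shown by 11 of the 56 members (19.6%, against 45.7% of all transcripts with an S5 mean of at least 5 RPKM). Without the TMM factors 0 members and 12% of those transcripts followed it. The cyclinG-like transcript (SMED30016204) averaged 16.9 ± 1.06 RPKM in S5, 24.7 ± 3.17 in S6 and 16.7 ± 0.663 in S8. SMED30024394, a dynein light chain (a subunit of microtubule motors) annotated to the eye, averaged 49.3 ± 35.2 RPKM in S5, 74.0 ± 4.86 in S6 and 41.8 ± 4.59 in S8. SMED30013480, related to dihydropyrimidinase-related protein 3, which acts in growing axons of vertebrates, averaged 47.2 ± 16.2 in S5, 74.0 ± 2.95 in S6 and 46.7 ± 4.16 in S8.

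Matrix and signalling members were few. SMED30010499 matched perlecan, a proteoglycan of basement membranes, and was at 3.49, 6.68, 11.7 and 6.41 RPKM in S5, 20.6, 20.4, 16.2 and 21.0 in S6 and 20.0, 25.6, 20.5 and 19.8 in S7, so that every S6 and S7 embryo was above every S5 embryo. SMED30023473, whose best matches were Notch homolog 4 in Swiss-Prot and plasminogen in the NCBI nr database, was at 18.5, 39.1, 54.7 and 38.0 RPKM in S5, 43.4, 49.2, 25.8 and 39.6 in S6 and 14.0, 19.7, 13.3 and 11.3 in S7. With such different matches its role is unsure. SMED30025986, an SPRY domain and SOCS box protein (a family that hands targets to ubiquitin ligases), averaged 19.1 ± 8.15 RPKM in S5, 24.2 ± 3.90 in S6 and 9.58 ± 0.0834 in S8.

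Transporters and metabolic enzymes differed from member to member. SMED30008806, a solute carrier family 26 anion exchanger, averaged 12 ± 7.88 RPKM in S5 and 18.0 ± 2.58 in S6, and the cationic amino acid transporter SMED30032006 averaged 8.15 ± 6.48 in S5 and 7.18 ± 0.687 in S6. SMED30003929, related to the pyridoxine (vitamin B6) biosynthesis protein SNZERR, was at 2.19, 0.989, 3.43 and 14.6 RPKM in S4, 106, 151, 106 and 119 in S5 and 47.5, 43.5, 42.3 and 33.6 in S6. All 4 S5 embryos were higher than all S6 embryos, and its S6 to S5 ratio of 0.346 was the lowest of the members. SMED30015802, a trans-L-3-hydroxyproline dehydratase, averaged 17.1 ± 9.88 RPKM in S5 and 19.9 ± 1.87 in S6. SMED30028588, a phytanoyl-CoA dioxygenase domain protein, averaged 11.1 ± 2.94 in S5 and 20.0 ± 1.61 in S6, and SMED30028914, a photolyase that repairs light-damaged DNA, averaged 10.0 ± 4.33 in S5 and 11.9 ± 0.537 in S6. SMED30004216, a dihydropyrimidine dehydrogenase (the first enzyme of pyrimidine breakdown) annotated as gut-enriched, stood apart through its adult levels, given with the comparison of the adults.

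Of the 53 members present in the study's annotation, 41 had a BLASTx description, and the remaining 15 of the 56 had none. The rest of the described members had weakly characterised matches, such as SMED30004057 (similar to a Schistosoma protein), which was the seventh highest at S5 with 2.74, 43.2, 112 and 87.1 RPKM. A signal peptide was predicted in 11 of the 53 (20.8%, against 16.7% of 3782 annotated transcripts) and at least 1 transmembrane helix in 8 (15.1%, against 29.5%). Transcript lengths were 333 to 11527 bases (median 1226.5, against 1408.5 over all transcripts with an S5 mean of at least 5 RPKM). An adult tissue was given for 18 members, and gut was named for 10 of them. These shares are descriptive and were not tested.

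The 10 members annotated to adult gut included the vitellogenin-like, phosphatase, cholinesterase-like and pyrimidine-degrading transcripts described above, and did not share a course. SMED30035840, matching cornifelin and PLAC8-like proteins, was at 18.5, 47.4, 45.8 and 24.5 RPKM in S5, 48.1, 49.4, 72.9 and 56.1 in S6, 104, 74.0, 89.8 and 126 in S7 and 132, 171, 141 and 116 in S8. It was the 1 member of 56 whose group mean was higher at every step between S5 and S8 (4 members without the TMM factors), and it averaged 120.4 ± 27.8 RPKM in SX and 166 ± 47.3 in C4. SMED30007877, undescribed and annotated to gut and eye, averaged 13.7 ± 9.00 RPKM in S5, 48.0 ± 5.04 in S6, 40.9 ± 2.73 in S8, 32.5 ± 5.71 in SX and 37.3 ± 5.63 in C4, and so stayed above its S5 mean in each later group. SMED30019390, a Kelch domain protein annotated to gut and to sigma neoblasts, ran the other way, with 12.6 ± 2.71 RPKM in S5, 7.21 ± 1.21 in S6, 3.63 ± 0.146 in S8, 7.78 ± 0.549 in SX and 4.57 ± 0.997 in C4. In the tests described below, 2 of these 10 members were called lower in S7 than in S6 (0.787% of all transcripts tested were). In SX against C4, 2 were called lower (12.5%), and in C4 against S7, 2 were called higher (13.4%) and 1 lower (15.4%).

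The 4 members annotated as pan-neural were both Ski-like transcripts, SMED30021702 and SMED30027268, the last matching a hypothetical Schistosoma protein. SMED30027268 was at 7.85, 11.5, 12.7 and 10.7 RPKM in S5, 21.6, 21.9, 29.8 and 23.3 in S6, 32.9, 27.8, 28.5 and 38.1 in S7 and 27.3, 29.3, 31.6 and 31.3 in S8. All S6, S7 and S8 embryos were above all S5 embryos. The undescribed SMED30005747 averaged 10.5 ± 6.95 RPKM in S5, 9.02 ± 1.68 in S8, 86.9 ± 37.7 in SX and 54.2 ± 11.8 in C4, and its SX mean was 8.30 times its S5 mean, the highest such ratio of the members. At the other end, SMED30024334 in C4 (0.0508 of its S5 mean) and SMED30021702 in SX (0.0917) had the lowest adult ratios.

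For contrast, 8 transcripts met the same limits up to S5 but had S8 means at or under 0.2 of S5. The most abundant of these, SMED30000513, had means of 723 RPKM at S5, 742 at S6, 139.5 at S7 and 76.3 at S8. The median ratio to S5 was 1.27 at S6, 0.966 at S7, 0.575 in SX and 0.787 in C4 for the 56 members, against 0.378, 0.146, 0.0288 and 0.0107 for the 8. S8 itself separated the sets, so these differences are given as a description.

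The first tested comparison asked how the members changed between day 9 and day 10, S7 against S6. It was part of 1 fit across 32033 transcripts in the 16 S6, S7, SX and C4 libraries on log2(RPKM + 0.1), using limma with Benjamini-Hochberg adjustment, and a transcript was called where the adjusted p was under 0.05 and the log2 fold change was 1 or more in size. All 56 members entered the fit, none was called higher in S7 (5.06% of all transcripts tested were) and 8 were called lower (0.787% were), so 8 were called in either direction (5.85%). Among the 7747 transcripts tested that had an S5 mean of at least 5 RPKM, 0.465% were called higher and 1.34% lower, so a count of 0 higher is near the share of transcripts of like S5 level. At an unadjusted p under 0.05, 2 members were higher and 36 lower in S7, and voom on the rebuilt reads called 0 higher. Log2 fold changes were below 0 in 51 of 56 members, with a median of -0.40, against 0.03 over all transcripts tested and -0.11 over those with an S5 mean of at least 5 RPKM. Of all transcripts tested 52.7% were above 0, whereas 69.0% of those with an S5 mean of at least 5 RPKM were below 0. The count of 8 depended on the spread the fit used: with S7 and S6 alone it was 5, with all 40 libraries in the fit it was 0, and without S6 replicate 1 or without S6 replicate 2 it was 5 each time.

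Of the 8 members that fell in S7, 7 had no description and the other was the transcript with Notch and plasminogen matches. SMED30012783 was at 4.37, 4.12, 2.47 and 2.07 RPKM in S7, against 15.1, 11.4, 5.43 and 11.0 in S6 (log2 fold change -1.67 ± 0.28 (SE), adjusted p = 0.0011). SMED30023473 was at 14.0, 19.7, 13.3 and 11.3 RPKM in S7, against the S6 values given above (log2 fold change -1.42 ± 0.21 (SE), adjusted p = 3.02e-04). SMED30002872 was at 5.40, 7.94, 4.07 and 4.96 RPKM in S7, against 13.3, 17.4, 10.3 and 14.7 in S6 (log2 fold change -1.32 ± 0.23 (SE), adjusted p = 0.0012). The S7 and S6 embryos did not overlap in any of these. SMED30000949 and SMED30004412 also fell without overlap, whereas SMED30000607, SMED30005747 and SMED30031725 were called with overlapping embryos. Of the transcription regulators 0 of 10 passed in limma (9 were lower at an unadjusted p under 0.05), and their log2 fold changes were -0.70 to -0.30. Neither cysteine proteinase passed: SMED30035609 had a log2 fold change of -0.33, adjusted p = 0.39, and SMED30018252 one of -0.12, adjusted p = 0.83.

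Embryonic gut markers fell over the same interval. All 4 were called lower in S7, with sums of 2.24 to 199 RPKM in S7 against 185 to 597 RPKM in S6, and of 2 temporary pharynx markers tested 1 was called lower, with sums over the list of 4 of 0.821 to 2.00 RPKM in S7 against 2.21 to 33.7 RPKM in S6. The limma calls held 0 of 7 neoblast and 0 of 11 epidermal markers. At S5 the 4 gut markers summed to 655 to 878 RPKM. Whether the 8 members share a source with these markers was not tested.

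The second comparison set SX against C4 adults. Of the 56 members 1 was called higher in SX (18.6% of all transcripts tested were) and 13 lower (12.5%), 14 in either direction (31.1%). The median log2 fold change of the members was -0.37, against 0.00 over all transcripts tested and -0.18 over those with an S5 mean of at least 5 RPKM, among which 4.88% were called higher and 4.69% lower. With a pseudocount of 1 RPKM 8 members were called lower and with all 40 libraries in the fit 6. Biotype and sequencing run cannot be told apart here, because all SX libraries were sequenced apart from all C4 libraries.

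The largest change was in the pyrimidine-degrading enzyme. SMED30004216 was at 5.61, 6.07, 6.84 and 5.56 RPKM in SX, against 66.9, 63.8, 63.2 and 53.3 in C4 (log2 fold change -3.34 ± 0.21 (SE), adjusted p = 6.15e-10). It averaged 10.0 ± 4.22 RPKM in S5 and 5.41 ± 1.81 in S7 embryos, so SX adults lay near the embryonic level and C4 adults above it. The sole member called higher in SX was the undescribed SMED30024334, at 13.5, 2.52, 0.485 and 1.43 RPKM in SX, against 0.259, 0.217, 0.233 and 0.766 in C4 (log2 fold change 2.48 ± 0.97 (SE), adjusted p = 0.044). The C4 level rests on 20 reads over 4 libraries. SX replicate 1 was the highest of those 8 adults, the groups overlapped, and the call was lost (a count of 0) without that library and under several other settings.

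Transcription regulators made up 7 of the 13 members that fell, and all 10 regulators had log2 fold changes below 0. Of all transcripts tested with an S5 mean of at least 5 RPKM, 64.9% were below 0. The pair of Ski-like transcripts may share reads, so they may not count separately. SMED30003733 (Ski-like) was at 5.24, 4.24, 3.25 and 3.11 RPKM in SX, against 12.2, 18.1, 14.1 and 17.3 in C4 (log2 fold change -1.95 ± 0.16 (SE), adjusted p = 4.21e-08). SMED30021702 (zinc finger) was at 0.828, 0.558, 0.331 and 0.460 in SX, against 2.35, 2.61, 2.44 and 3.14 in C4 (log2 fold change -2.13 ± 0.21 (SE), adjusted p = 2.70e-07). The SX and C4 adults were fully separated for both. The other Ski-like transcript, SMED30011091, was at 3.11, 2.33, 1.91 and 2.19 in SX, against 8.12, 8.31, 7.74 and 8.66 in C4 (log2 fold change -1.76 ± 0.14 (SE), adjusted p = 1.99e-08). Also called were the Iroquois-like SMED30018309 (log2 fold change -1.62, adjusted p = 1.17e-07), soxB-1 (-1.45, adjusted p = 2.86e-06), Znf91 (-1.22, adjusted p = 6.69e-06) and tcf15 (-1.05, adjusted p = 9.75e-05). EGR-1 (-0.77, adjusted p = 3.68e-04), SD1 (-0.65, adjusted p = 0.001) and SMED30034275 (-0.42, adjusted p = 0.03) were below the fold criterion.

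The other described groups gave few calls. Among hydrolases 0 of 5 were called in limma (log2 fold changes -0.74 to 0.78, with 2 higher and 2 lower at an unadjusted p under 0.05), and among storage members 0 of 3 (0.09 to 0.67, with 2 higher at that level). The hydroxyproline dehydratase SMED30015802 was at 7.10, 9.57, 7.25 and 6.98 RPKM in SX, against 17.4, 24.1, 18.9 and 16.6 in C4 (log2 fold change -1.30 ± 0.14 (SE), adjusted p = 7.74e-07), lower in all 4 SX adults than in any C4 adult. The remaining 4 of the 13 that fell (SMED30000949, SMED30004412, SMED30013585 and SMED30031725) had no informative description.

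Most neural and eye markers, though not all, were also lower in SX. Of 7 neural lineage markers 5 were called lower and 1 higher, with sums of 10.8 to 14.7 RPKM in SX against 26.2 to 28.9 RPKM in C4. Of 5 eye markers 3 were called lower (soxB-1, itself a member, is on that list), with sums of 4.13 to 7.01 RPKM in SX against 8.72 to 10.6 RPKM in C4. The eye markers six-1/2 (means of 1.61 RPKM in SX and 1.05 in C4) and otxA (1.40 and 1.34) were higher by mean in SX, as was the neural marker sim (2.74 and 1.16). Of 11 epidermal markers 1 was called lower, with sums of 1028 to 1861 RPKM in SX against 1243 to 2163 RPKM in C4. None of the neural or eye markers had a group mean of 0 in either adult. The part of these cell types in the members' differences was not tested.

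The third comparison, C4 adults against S7 embryos, shares its C4 samples with the second and its S7 samples with the first. It also sets a clonal asexual line against embryos of sexual stock, so age and strain cannot be told apart. Of the 56 members 5 were called higher in C4 (13.4% of all transcripts tested were) and 11 lower (15.4%), 16 in either direction (28.8%), with a median log2 fold change of -0.42, against -0.07 over all transcripts tested. Among those with an S5 mean of at least 5 RPKM, 8.82% were called higher and 7.46% lower. Their median was -0.009 and 50.6% of them were below 0. The count of 5 higher is near the share of transcripts of like S5 level. The count of lower members was 5 with all 40 libraries in the fit and 17 with quantile normalization.

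The members higher in C4 were mainly enzymes. SMED30004216 was at the C4 values given above, against 5.64, 3.90, 4.23 and 7.89 RPKM in S7 (log2 fold change 3.54 ± 0.21 (SE), adjusted p = 2.78e-09). SMED30016801, the phospholipase-like transcript, was at 74.6, 82.8, 67.6 and 67.1 RPKM in C4, against 16.3, 20.6, 19.2 and 17.6 in S7 (log2 fold change 1.98 ± 0.13 (SE), adjusted p = 1.19e-08). The undescribed SMED30005747 was at 60.5, 64.5, 37.8 and 54.0 in C4, against 8.89, 18.4, 7.98 and 6.44 in S7 (log2 fold change 2.46 ± 0.36 (SE), adjusted p = 4.57e-05). None of these groups overlapped. SMED30018252 (1.26, adjusted p = 9.01e-05) and SMED30023427 (1.19, adjusted p = 2.01e-06) completed the set, so that 3 of 5 hydrolases were called higher and all 5 had log2 fold changes above 0. The other cysteine proteinase, SMED30035609, did not pass (0.12, adjusted p = 0.67), with C4 and S7 values overlapping.

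Among the 11 members that fell were storage, matrix and undescribed transcripts. SMED30003809, the vitellogenin-like transcript, was at 72.0, 41.5, 68.4 and 49.7 RPKM in C4, against the S7 values given above (log2 fold change -1.67 ± 0.20 (SE), adjusted p = 5.41e-06). SMED30010499, perlecan-like, was at 7.66, 3.05, 10.9 and 8.43 in C4, against the S7 values given above (log2 fold change -1.63 ± 0.27 (SE), adjusted p = 1.32e-04). SMED30033614, undescribed, was at 0.271, 0.340, 0.366 and 0.801 RPKM in C4, against 3.09, 2.26, 1.98 and 4.56 in S7 (log2 fold change -2.51 ± 0.35 (SE), adjusted p = 2.54e-05). C4 and S7 did not overlap in these 3. The largest fitted change, in SMED30024334 (-3.64, adjusted p = 0.0061), was called although its groups overlapped. The regulators gave 1 call, SMED30021702 (-1.01, adjusted p = 8.88e-04). The list of 20 yolk transcripts moved over the same comparison, with 18 called lower in C4 and sums of 10065 to 13698 RPKM in C4 against 70605 to 259250 RPKM in S7. Of the 4 embryonic gut markers 3 were called lower and 1 higher in C4, with sums of 3.47 to 4.08 RPKM in C4 against 2.24 to 199 RPKM in S7. The part of these lists in the members' values was not tested.

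**Figure D5:**
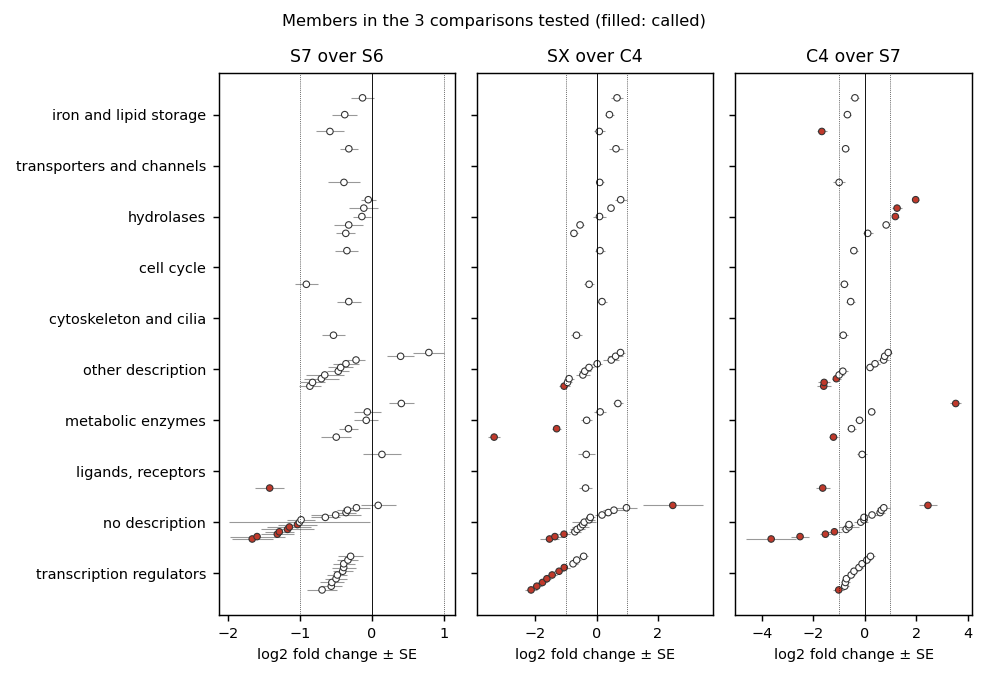
Log2 fold changes on log2(RPKM + 0.1) of members in S7 over S6, SX over C4 and C4 over S7, with bars of ± 1 SE; filled points were called and dotted lines mark -1 and 1. Most points in the first panel lie slightly below 0, and transcription regulators in the second panel all lie below 0.

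Across the 3 comparisons, which share samples, 29 members were called at least once, 9 of them in 2 comparisons, 0 in all 3, and 27 in none. At least 1 call was made for 48.1% of all transcripts tested and for 21.7% of those with an S5 mean of at least 5 RPKM. Members with no call included both ferritins, the dynein light chain, the cdc25 phosphatase, EGR-1 and the solute carriers. Adult means were above the S5 mean in both biotypes for 12 members (21.4%, against 25.0% of all transcripts with an S5 mean of at least 5 RPKM), and below the S8 mean in both for 28 of the 56 (against 28.7%). Without the TMM factors these counts were 22 members (39.3%, against 55.0%) and 36 members (64.3%, against 48.4%).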

How the data were processed

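The 40 libraries were polyA-selected and, per the methods, made from single yolk preparations, embryos or adults. The authors separated barcoded reads with Illumina software that included CASAVA 1.8.2. They mapped reads with Bowtie to a Smed transcriptome, keeping reads with up to 5 matches, and deposited RPKM values scaled with TMM factors. From these deposited RPKM values, group means chose the members, and whole reads were rebuilt. The rebuilt length equalled the given length for all 3782 transcripts with a given length. For the others, the smallest length that made every value a whole read was taken. With these lengths 100% of values fell within 0.01 of a whole read, a share that does not check the chosen lengths. The reads assigned to transcripts in the table summed to 5.73 to 17.5 M per library. No column of per-sample values was left unused (0 columns).

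S7 against S6, SX against C4 and C4 against S7 were tested with limma 3.58.1 in R 4.3.3 (trended prior, 1 coefficient per group, no block) on log2(RPKM + 0.1), over 32033 transcripts with RPKM summing to at least 1 over 16 samples, with Benjamini-Hochberg adjustment. Fold changes are on that scale and understate changes of low transcripts. The script was tested on simulated data. Figures used matplotlib 3.10.9.

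Members, role lists, marker lists and tests were chosen with earlier results of these data known. Members were named by planarian name, the 10 highest S5 means, the 3 largest non-overlapping changes per comparison and direction, the 3 highest per role, and the limits of the rule. The cell cycle and storage roles were added after the members were seen, and other members named in the text were chosen after their values were seen. Descriptions, tissues and signal peptides came from the study's annotation tables. Alternatives were pseudocounts, filters, scalings, samples in the fit, voom, a replicate block and each replicate left out. No genome or sequence was used here.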

Additional observations from a re-analysis of the deposited data

Results flagged for a closer look

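In 16 of 218 groups of 4 tested, 1 library lay far from the other 3 by Dixon's test, which chance alone does in about 1 in 20 groups. The median member was at 0.708 RPKM in Y replicate 4, against 0.175 to 0.239 RPKM in the other yolk samples, and at 16.5 RPKM in S7 replicate 2, against 11.2 to 11.8 RPKM in the other S7 embryos. S7 replicate 2 was also the high library for the ferritin SMED30017554 (145 RPKM) and the perlecan-like SMED30010499 (25.6 RPKM). Among regulators, tcf15 stood apart in S6 replicate 2 (26.9 RPKM), S8 replicate 1 (13.9 RPKM) and C4 replicate 2 (30.2 RPKM), EGR-1 in C4 replicate 2 (22.2 RPKM), Znf91 in SX replicate 1 (8.58 RPKM) and SMED30021702 in S5 replicate 3 (7.89 RPKM). In SX adults, the phospholipase-like SMED30016801 was apart in replicate 1 (38.0 RPKM), SMED30025986 in replicate 1 (7.27 RPKM) and SMED30015802 in replicate 2 (9.57 RPKM). The remaining 3 were the vitellogenin-like SMED30003809 in S8 replicate 1 (152 RPKM), SMED30010499 in S6 replicate 3 (16.2 RPKM) and SMED30033614 in S6 replicate 2 (4.98 RPKM).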

How the results depend on the processing

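The number of transcripts meeting the rule was 128 without TMM factors, 126 with the median of replicates, 36 with an S5 mean of at least 10 RPKM, 10 with earlier groups at most 0.05 of S5, and 37 to 117 when each replicate was left out in turn (37 without S5 replicate 3 and 117 without S2 replicate 2). Of these, 56, 51, 36 and 10 were among the 56 in the first 4 settings. With S2 replicate 2 and S5 replicate 1 both left out, a choice made after seeing the data, 154 transcripts met the rule, 55 of them among the 56, and over the 154 the median ratio to S5 was 1.65 at S6, 1.29 at S8, 0.866 in SX and 1.29 in C4. For the 56 themselves the medians without TMM factors were 2.04, 1.52, 0.942 and 1.28, and leaving out each replicate gave 1.07 to 1.55, 0.664 to 1.096, 0.483 to 0.691 and 0.723 to 0.843.

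With adjusted p alone, 1 member was higher and 18 lower in S7 than in S6 (8.08% and 2.56% of all transcripts tested), 10 higher and 24 lower in SX than in C4 (24.3% and 25.6%), and 12 higher and 28 lower in C4 than in S7 (22.9% and 23.4%). The S7 lower count was 5 with both groups alone, 0 with all 40 samples, and 5 to 9 with a replicate left out (5 without S6 replicate 1 or 2). The SX higher count was 0 with a pseudocount of 1 RPKM, no filter, all 40 samples or voom, 2 with a pseudocount of 0.01 RPKM or without TMM factors, and 0 to 2 with a replicate left out (0 without SX replicate 1 or 4, S6 replicate 1 or 2, or C4 replicate 1, 2 or 3). The SX lower count was 8 with a pseudocount of 1 RPKM, 6 with all 40 samples and 11 to 14 with a replicate left out. The C4 lower count was 17 with quantile normalization, 5 with all 40 samples and 10 to 14 with a replicate left out. Same-numbered samples deviated together weakly at most (r of deviations -0.05 to 0.19 over the 3 comparisons). For S7 and S6, r was higher for the same number than for any other in replicate 1 (0.042, against 0.009), 2 (0.189, against 0.054) and 3 (0.060, against 0.006), but not 4 (0.020, against 0.150). The methods pooled 1 replicate of each embryo stage, yolk and C4 per lane. Whether the number marks the lane was not given, and these values cannot exclude a shared lane. With a replicate block the counts were 0, 8, 1, 13, 5 and 11, as without it. For 24 log2 fold changes of named members, 422 values under other settings kept direction and call, 34 kept direction and lost the call, and 0 changed sign. Causes were not tested.

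Members with few reads are imprecise: the median member had 17 reads over the 4 S4 embryos.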
